A study of Mus musculus with 12 samples.

Results

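The comparison described here is that of microglial preparations labelled CPEB1-KO with preparations labelled WT, both from mice that received no lipopolysaccharide (LPS). Members were chosen by label alone and are 6 of the 12 libraries of the series, 3 per genotype. All animals were C57BL6/J mice of 3 to 4 months, and each library came from 1 animal. Microglia were enriched on Percoll density gradients, total RNA was taken and libraries were made by poly(A) selection. The other 6 libraries, labelled WT-LPS and CPEB1-KO-LPS (3 each), came from mice treated with LPS, a bacterial cell-wall component, for 24 h, and are used here for the estimate of spread and for the same genotype comparison in other animals. The sources used here do not give the knockout allele, a Cre driver if any, the LPS dose or the sex of the animals.

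CPEB1 is an RNA-binding protein that recognises the cytoplasmic polyadenylation element (CPE), a short U-rich motif in 3′ untranslated regions (3′UTRs). Bound to it, CPEB1 assembles or releases complexes that lengthen or shorten the poly(A) tail, and so sets how strongly an mRNA is translated. It is best known from oocyte maturation, the cell cycle and local translation at neuronal synapses. Microglia are the resident macrophages of the brain. They lie among neurons and engulf their debris, so a density gradient preparation can carry RNA of other brain cells.

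Values below are TPM (transcripts per 1e+06 transcripts, as the authors deposited them) for levels, and log2 fold changes of scaled counts, CPEB1-KO minus WT, with their standard error (SE) for differences. Tests are edgeR's quasi-likelihood test over 15295 genes, with the Benjamini-Hochberg false discovery rate (FDR). Depth was 9.49, 5.02 and 5.40 M (1e+06 counts) in WT replicates 1 to 3 and 9.47, 13.4 and 11.1 M in CPEB1-KO, so the shallowest libraries are both WT. Core microglial genes were abundant in all 6 libraries, with C1qa, a complement component made by microglia, at 1268 to 3164 TPM. None of the 20 core microglial markers was listed at 0. The share of haemoglobin in the counts was 1.04% to 1.63% in WT and 0.576% to 0.847% in CPEB1-KO.

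Reads of Cpeb1, the targeted gene, were found in all 3 libraries labelled CPEB1-KO. Cpeb1 (chromosome 7, 81347026 to 81455465 of mm10) was at 19.9, 15.5 and 43.2 TPM in WT and at 17.6, 26.4 and 21.2 TPM in CPEB1-KO. The groups overlapped, and WT replicate 3 was the highest. The log2 fold change of -0.58 ± 0.31 (SE, n = 3 per group) had an FDR of 0.334. With counts scaled to the core microglial genes the sign turned, to 0.59. The median of all genes was 1.13 with that scaling, so Cpeb1 stayed below the median gene. Counts were summed per gene, so a deletion of single exons would not show, and genotypes are named here by label.

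CPE letters were read from the longest 3′UTR that GENCODE M21 (mm10) annotates for each gene, to show the sequence that CPEB1 is known to recognise. The motifs searched were TTTTAT and TTTTAAT on the transcribed strand, and 62% of 14131 tested genes with an annotated 3′UTR held at least 1. The sites below are from Taf15, one of the genes that differed between the genotypes, from Cpeb1 itself, and from Ccnb1 (cyclin B1), Plat (tissue plasminogen activator) and Trp53 (p53), mRNAs described as CPEB1 targets. Where a 3′UTR held several, the one nearest its end is shown. The capitals mark the motif.
Taf15 (chr11:83506622-83506643, plus strand): aaatccccTTTTATtttcccac
Cpeb1 (chr7:81347260-81347282, minus strand): acttttctTTTTAATttaacgat
Ccnb1 (chr13:100778779-100778801, minus strand): atttgctgTTTTAATttatacat
Plat (chr8:22782748-22782770, plus strand): tatttataTTTTAATctatttta
Trp53 (chr11:69591818-69591839, plus strand): ttacccctTTTTATatatcaat
The site of Trp53 lay 42 bases from the end of the 3′UTR, that of Plat 82, that of Taf15 108, that of Ccnb1 137 and that of Cpeb1 242. Gm13304, Slc2a5 and Cuedc1, which also differed between the genotypes, had neither motif in 3′UTRs of 393, 938 and 1547 bases. A match is only a run of letters and was not tested as a binding site.

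Neuronal transcripts were abundant in every library, and their level separated 2 of the 3 WT libraries from the rest. The pan-neuron list holds 12 genes found in most neurons, such as Snap25, a protein of synaptic vesicle fusion. Its mean log2(TPM + 1) was 7.87, 6.30 and 6.55 in WT replicates 1 to 3 and 7.92, 8.20 and 8.32 in CPEB1-KO. WT replicate 1 thus lay next to CPEB1-KO replicate 1, and WT replicates 2 and 3 lay below all other libraries. WT replicates 2 and 3 were also the shallowest libraries (5.02 and 5.40 M counts), and the relation of depth to neuronal level was not tested. The group means were 6.91 ± 0.84 (SD, n = 3) and 8.15 ± 0.21. Summed over the 12 genes, the level was 4794, 1553 and 1851 TPM in WT and 4650, 5726 and 6198 TPM in CPEB1-KO. The 125 genes of all 9 neuronal lists held 1.94%, 0.729% and 0.997% of TPM in WT and 1.83%, 2.86% and 2.34% in CPEB1-KO. Without the neuropeptide and hormone list, which includes the pituitary hormone Gh (4952 TPM in CPEB1-KO replicate 2), the other 113 genes held 1.79%, 0.698% and 0.941% in WT and 1.73%, 2.01% and 2.22% in CPEB1-KO.

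**Figure D1:**
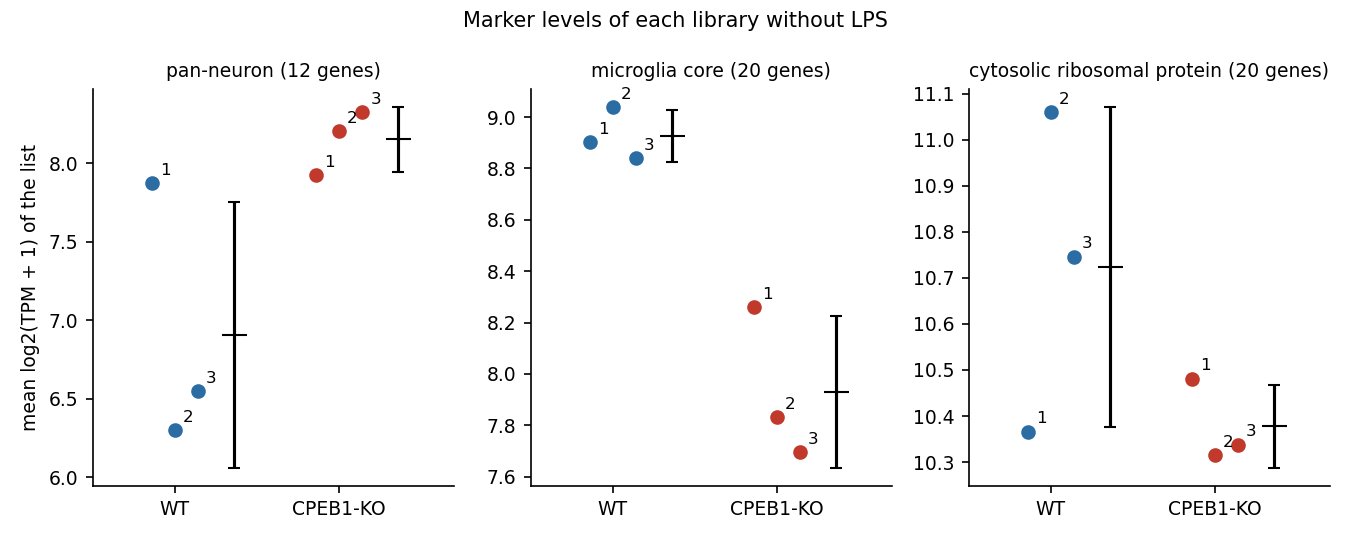
Mean log2(TPM + 1) of the pan-neuron, core microglia and cytosolic ribosomal protein lists in each of the 6 libraries without LPS. Each point is 1 library with its replicate number, and bars are the mean ± SD of 3. WT replicate 1 (7.87) sits with the CPEB1-KO libraries (7.92 to 8.32) in the pan-neuron panel and in the ribosomal panel, but with WT in the microglial panel.

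Snap25 was at 1457, 576 and 572 TPM in WT and at 1405, 2091 and 2208 TPM in CPEB1-KO. Stmn3, a regulator of neuronal microtubules, was at 1101, 293 and 355 TPM in WT and at 952, 976 and 1071 TPM in CPEB1-KO. In both genes WT replicate 1 lay inside or above the CPEB1-KO range. Their log2 fold changes were 0.85 ± 0.46 (FDR 0.337) and 0.52 ± 0.42 (FDR 0.510). All 12 pan-neuron genes had a fold change above 0, between 0.34 and 1.11 with a median of 0.82, beside -0.03 over all genes tested. None passed an FDR of 0.05, a threshold that 0.0327% of all genes tested passed in this comparison, and 4 (Syn1, Map2, Nefm and Elavl4) had an unadjusted p under 0.05 with a higher level in CPEB1-KO, beside 7.54% of all genes. The median was also positive with median-of-ratios scaling (0.80) and on TPM (1.24, where the median of all genes was 0.26), and it was -0.03 with the neuron level as a covariate, which takes out the axis these same genes define.

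Transcripts of particular neuron types and of the synapse had positive medians as well. Beside 7.54% of all genes, unadjusted p was under 0.05, with higher levels in CPEB1-KO, for 8 of 19 presynaptic, 7 of 21 postsynaptic, 7 of 15 ion channel, 4 of 15 inhibitory, 4 of 10 cerebellar, 3 of 9 striatal and 1 of 12 excitatory genes, the last near the share of all genes. No gene of these lists passed an FDR of 0.05 in edgeR with all libraries, and list medians ran from 0.50 to 0.79. DESeq2, which called 3.39% of all genes, called 1 inhibitory, 1 postsynaptic, 1 ion channel and 2 cerebellar genes, all higher in CPEB1-KO. Gad1, which makes the transmitter GABA, was at 172, 26.3 and 50.4 TPM in WT and at 223, 252 and 287 TPM in CPEB1-KO (log2 fold change 1.40 ± 0.49, FDR 0.194). Sv2a, a synaptic vesicle protein, was at 114, 28.9 and 43.5 TPM in WT and at 131, 154 and 167 TPM in CPEB1-KO (1.03 ± 0.36, FDR 0.194). In both genes the groups did not overlap, and WT replicate 1 was the nearest WT library to CPEB1-KO. Kcna1, a potassium channel of axons, was at 21.6, 5.52 and 10.1 TPM in WT and at 25.1, 34.1 and 32.7 TPM in CPEB1-KO (1.05 ± 0.31, FDR 0.168). Shank2, a scaffold of the postsynaptic density, was at 8.17, 6.01 and 3.40 TPM in WT and at 12.9, 17.2 and 17.6 TPM in CPEB1-KO (1.10 ± 0.28, FDR 0.146).

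Not every neuronal gene followed this order. Sst, which encodes the interneuron peptide somatostatin, was at 1053, 442 and 1016 TPM in WT and at 795, 781 and 937 TPM in CPEB1-KO (-0.29 ± 0.36, FDR 0.682). Rgs9, a striatal regulator of G protein signalling, was at 37.2, 34.7 and 110 TPM in WT and at 29.6, 37.4 and 35.7 TPM in CPEB1-KO (-0.97 ± 0.40, FDR 0.226). WT replicate 3 was the highest library for Rgs9, although its pan-neuron level was among the lowest.

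Core microglial transcripts lay lower in CPEB1-KO. Mean log2(TPM + 1) of the 20 genes was 8.90, 9.04 and 8.84 in WT and 8.26, 7.83 and 7.70 in CPEB1-KO, without overlap and with WT replicate 1 among the WT libraries. All 20 fold changes were below 0, with a median of -1.18, which was -1.22 with median-of-ratios scaling and -0.85 on TPM. The median was -0.09 with the neuron level as a covariate, and scaling to these genes sets it near 0 by construction (-0.01). The neuron level partly followed genotype, so the -0.09 cannot be assigned to neuronal content. Of the 20, 9 had an unadjusted p under 0.05, beside 11.1% of all genes on the lower side, and 1, Slc2a5, passed an FDR of 0.05. In 19 of the 20 the 3 CPEB1-KO libraries lay below the 3 WT libraries, beside 13.9% of all genes. In these mixed samples a smaller share of RNA from microglia cannot be told apart from a change within microglial cells.

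P2ry12, the purinergic receptor by which microglia sense injury, was at 441, 506 and 474 TPM in WT and at 307, 280 and 238 TPM in CPEB1-KO (-1.13 ± 0.68, FDR 0.376). Cx3cr1, the receptor for the neuronal chemokine fractalkine, was at 543, 493 and 396 TPM in WT and at 336, 243 and 202 TPM in CPEB1-KO (-1.20 ± 0.55, FDR 0.266). Tmem119 and Trem2 had log2 fold changes of -1.12 ± 0.56 and -1.23 ± 0.69 (FDR 0.299 and 0.350). The lowest values after that of Slc2a5 were those of Fcrls, an Fc receptor-like protein, at -1.87 ± 0.82 (FDR 0.248), and Olfml3 at -1.84 ± 0.50 (FDR 0.146). Aif1, the marker known as Iba1, was at 299, 502 and 411 TPM in WT and at 220, 177 and 139 TPM in CPEB1-KO (-1.55 ± 0.48, FDR 0.174).

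Over all genes, 5 of the 15295 tested passed an FDR of 0.05 (0.0327%), and all 5 were lower in CPEB1-KO. Slc2a5, the fructose transporter GLUT5 and a microglial marker (chromosome 4, 150119283 to 150144169 of mm10), was at 60.3, 25.8 and 25.6 TPM in WT and at 3.59, 2.10 and 3.55 TPM in CPEB1-KO. Every CPEB1-KO library was several-fold below every WT library. The log2 fold change was -3.88 ± 0.35 (FDR 0.000367), beside -0.75 to -1.87 for the other 19 core microglial genes. It was -4.25 ± 0.36 with the neuron level as a covariate (FDR 0.000671), -3.49 without WT replicate 1, and -2.79 with counts scaled to the core microglial genes.

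Gm13304, a predicted gene on chromosome 4 (42114817 to 42115917), was at 44.9, 23.0 and 63.1 TPM in WT and at 1.04, 0.40 and 1.36 TPM in CPEB1-KO (-5.80 ± 0.52, FDR 0.000367). All of its 31-base stretches also occur in another predicted gene, Gm21541, so its counts depend on how reads were shared between copies and are uncertain. Gm5512, a processed pseudogene on chromosome 19 (12905320 to 12906841), was at 19.9, 12.6 and 50.1 TPM in WT and at 1.93, 0.63 and 1.63 TPM in CPEB1-KO (-4.60 ± 0.57, FDR 0.00815). It shares 86.1% of its 31-base stretches with Rmnd1, a mitochondrial translation factor, and is uncertain for the same reason. Rmnd1 itself was at 11.8 to 15.3 TPM in WT and 17.6 to 18.2 TPM in CPEB1-KO (0.07 ± 0.23).

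Taf15, an RNA-binding protein of the FET family and a transcription cofactor (chromosome 11, 83473086 to 83506743), was at 188, 114 and 252 TPM in WT and at 83.8, 72.8 and 63.0 TPM in CPEB1-KO. The groups did not overlap, and the log2 fold change was -1.63 ± 0.24 (FDR 0.0316). Cuedc1, a ubiquitin-binding CUE domain protein (chromosome 11, 88098058 to 88194140), was at 37.4, 40.7 and 55.4 TPM in WT and at 20.5, 20.9 and 23.6 TPM in CPEB1-KO (-1.36 ± 0.19, FDR 0.0260). With the neuron level as a covariate the values were -1.43 ± 0.26 for Taf15 (FDR 0.0877), -1.14 ± 0.21 for Cuedc1 (FDR 0.0931) and -3.84 ± 0.62 for Gm5512 (FDR 0.0541), beside -1.63, -1.36 and -4.60 without it, and the 3 calls were lost. In the fit of the 6 libraries alone these 3 genes lost their call as well, and Gm13304 and Slc2a5 were among its 4 calls. Taf15 and Cuedc1 also lost theirs with the replicate block, in the test against 1.5-fold, in the TPM fits, with counts scaled to the core microglial genes and without any one of 8 libraries (WT replicate 3, WT-LPS replicates 2 and 3, each CPEB1-KO replicate, and CPEB1-KO-LPS replicates 1 and 2), and Cuedc1 without WT replicate 2. Gm5512 lost its call without CPEB1-KO replicate 2 or 3. Slc2a5 and Gm13304 remained below an FDR of 0.05 when any single library was left out, but Gm13304 lost its call with the replicate block and the neuron covariate together.

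**Figure D2:**
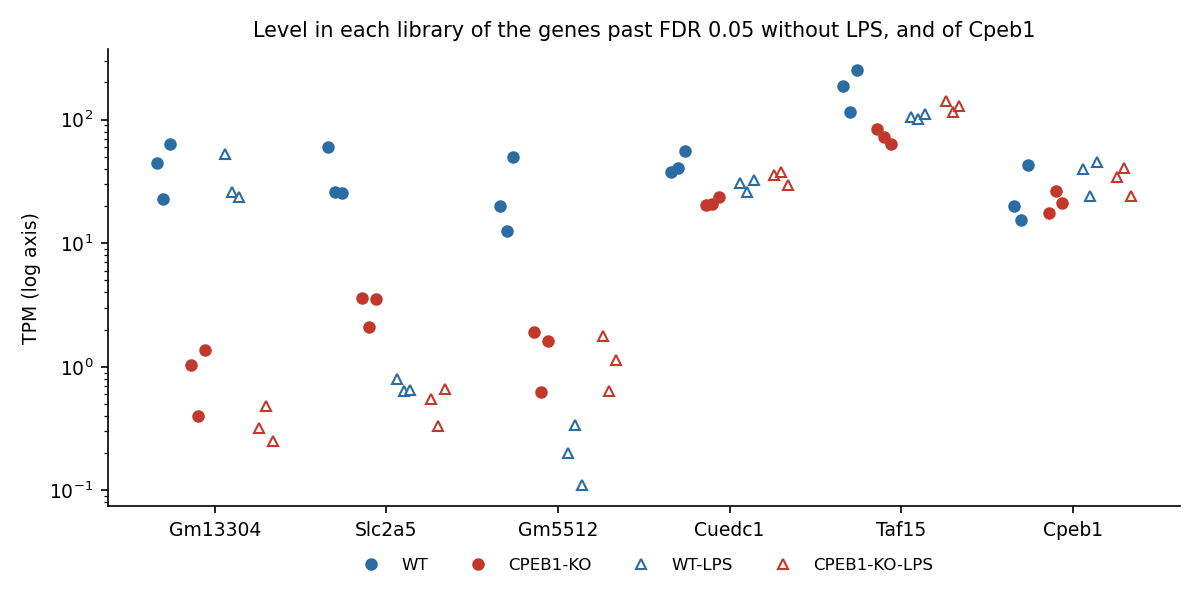
TPM on a log axis in each library for the 5 genes past an FDR of 0.05 without LPS and for Cpeb1. Filled circles are libraries without LPS and open triangles libraries with LPS, blue for wild type and red for knockout. The filled red points lie below the filled blue points for the first 5 genes and overlap them for Cpeb1.

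At an FDR of 0.10 the list grew to 15 genes (0.0981%), again all lower in CPEB1-KO. Itga6, the integrin alpha 6 laminin receptor, was at 21.7, 17.6 and 12.8 TPM in WT and at 6.89, 6.44 and 6.02 TPM in CPEB1-KO (-1.77 ± 0.30, FDR 0.0915). Miip, an inhibitor of cell migration, was at 28.8, 49.7 and 97.0 TPM in WT and at 10.8, 8.40 and 9.27 TPM in CPEB1-KO (-2.96 ± 0.49, FDR 0.0805). In both, every CPEB1-KO library lay below every WT library. Gzma, the cytotoxic protease granzyme A of T and NK cells, was at 19.6, 10.1 and 7.94 TPM in WT and at 1.79, 4.10 and 4.66 TPM in CPEB1-KO (-2.15 ± 0.38, FDR 0.0950). Nkg7, another cytotoxic granule gene, was at 4.20 to 9.42 TPM in WT and 3.13 to 11.4 TPM in CPEB1-KO (-0.26 ± 0.55). Of the 10 tested T and NK cell genes 9 had a fold change below 0, with a median of -0.35. Unadjusted p was under 0.05 for 3 of them, all lower, beside 11.1% of all genes. DESeq2 called 2 of the 10, both lower, beside 3.39% of all genes in either direction.

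Slfn8, a Schlafen protein of immune cells, was at 5.03, 4.31 and 2.18 TPM in WT and at 0.62, 0.32 and 0.61 TPM in CPEB1-KO (-3.22 ± 0.57, FDR 0.0950). Slfn8 lies 452 kb from Taf15 on chromosome 11. Ldb3, a muscle Z-disc protein, Plac9b, Tcte1 and D330041H03Rik had log2 fold changes of -1.86, -2.47, -5.16 and -4.52. Tcte1 was at 1.39, 10.4 and 52.4 TPM in WT, so WT replicate 3 held most of its level. Plac9b shares 96.6% of its 31-base stretches with Plac9a and is uncertain.

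A pair of the 15 genes and a further one lie within 283 kb on chromosome 14. Pnp2, a purine nucleoside phosphorylase, had 52 counts over the WT libraries and 1 over CPEB1-KO, a ratio of 94.9 after scaling by depth (95% counting interval 16.3 to 3.82e+03). Rpph1, the RNA subunit of ribonuclease P, which has no poly(A) tail, had 53 and 3 counts, a ratio of 32.2 (10.5 to 161). Rpph1 shares 70.2% of its 31-base stretches with Ccnb1ip1, which overlaps it on the same strand, and Pnp2 shares 38.3% with Pnp, so both are uncertain. Ang, the ribonuclease angiogenin, lies 283 kb from Rpph1 and was singled out after its values were seen. It was at 76.6, 53.7 and 48.9 TPM in WT and at 14.2, 10.9 and 6.44 TPM in CPEB1-KO (-2.83 ± 0.59, FDR 0.139). Gm3893, 22.5 kb from Gm13304 and also chosen for its place, was at 1.52 to 2.49 TPM in WT and 0.22 to 0.36 TPM in CPEB1-KO (-3.11 ± 0.62, FDR 0.139). It shares 97.7% of its 31-base stretches with Gm2163.

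Below the threshold the genotype difference was broad. Unadjusted p was under 0.05 for 1153 genes higher in CPEB1-KO (7.54%) and 1691 lower (11.1%). The middle 50% of log2 fold changes lay between -0.402 and 0.308, and the 5% and 95% quantiles were -1.09 and 0.866. The groups did not overlap for 1980 genes higher (12.9%) and 2119 lower (13.9%) in CPEB1-KO. Serpina1b, a secreted protease inhibitor named after its values were seen, was at 0.22, 0.41 and 0.88 TPM in WT and at 6.26, 4.03 and 3.91 TPM in CPEB1-KO (2.93 ± 0.58, FDR 0.139), and it shares 44.7% of its 31-base stretches with other genes.

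**Figure D3:**
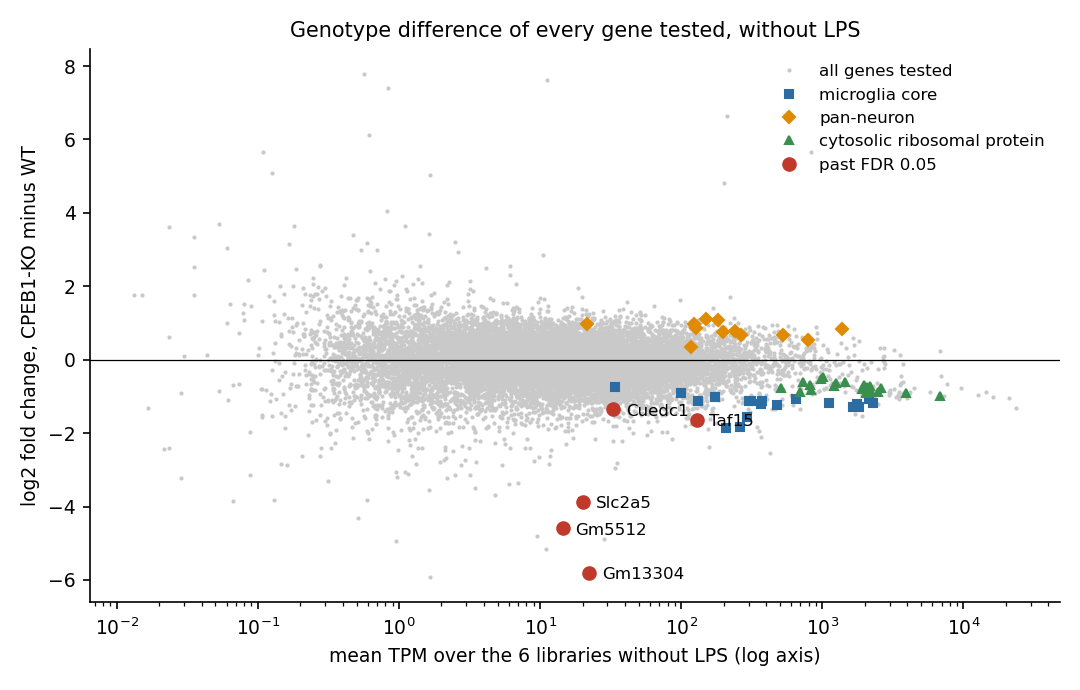
Log2 fold change (CPEB1-KO minus WT) against mean TPM (log axis) for the 15295 genes tested. The 12 pan-neuron genes (0.34 to 1.11) lie above the line at 0, the 20 core microglial and 20 ribosomal protein genes below it, and the 5 genes past an FDR of 0.05 are named.

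The number of genes past the threshold depended on WT replicate 1. Without it 1292 of 15550 genes passed an FDR of 0.05 (8.31%), 523 higher (3.36%) and 769 lower (4.95%) in CPEB1-KO, while leaving out any other single library gave 2 to 11. The 5 genes called with all libraries were among the 1292. The neuronal level of WT replicate 1, given above, was that of the CPEB1-KO libraries. Its depth (9.49 M) was near that of CPEB1-KO replicate 1 (9.47 M), while the other WT libraries were the shallowest. The part of neuronal level or depth in the count was not tested. Among the genes that then passed were 30 entries of the neuronal lists, all higher in CPEB1-KO, with 4 of 12 pan-neuron, 5 of 19 presynaptic, 6 of 15 ion channel and 5 of 10 cerebellar genes. Gad1 was then at 2.34 (FDR 0.0103), Sv2a at 1.65 (FDR 0.0109), Kcna1 at 1.58 (FDR 0.00650) and Nefm, a neurofilament subunit, at 2.0 (FDR 0.0176). On the lower side were Aif1 (-1.80, FDR 0.0478), 6 of 20 ribosomal protein genes and Sympk, a scaffold of the cleavage and polyadenylation machinery (-1.29, FDR 0.00662). Without both WT replicate 1 and CPEB1-KO replicate 1, 819 genes passed, 328 higher and 491 lower.

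The neuronal level was also entered as a covariate, as the mean log2 CPM (counts per 1e+06) of the 12 pan-neuron genes in each of the 12 libraries. This covariate was 8.48, 7.35 and 7.28 in WT and 8.47, 8.65 and 8.80 in CPEB1-KO, so it partly followed genotype. A genotype difference that shrank with it, in any gene or list, therefore cannot be assigned to neuronal content. The slope on the covariate passed an FDR of 0.05 for 1322 genes that went up with it (8.64%) and 766 that went down (5.01%). With it in the model the share of genes with an unadjusted p under 0.05 for genotype was 4.85%, beside 18.6% without it. The count past an FDR of 0.05 was 10 of 15295 (0.0654%). Slc2a5 and Gm13304 were among them, as were Pnp2, B230217O12Rik, Cort and Mid1 on the lower side and Eno1b, Gdpd3, Serpina1b and Dynlt1b on the higher side. Mid1, a ubiquitin ligase of microtubules at the edge of the X pseudoautosomal region, was at 18.8, 3.87 and 4.87 TPM in WT and at 2.08, 1.57 and 2.63 TPM in CPEB1-KO (-2.76 ± 0.43 with the covariate, FDR 0.0434). Cort, the interneuron peptide cortistatin, was at 26.7, 5.14 and 14.3 TPM in WT and at 1.36, 2.59 and 4.25 TPM in CPEB1-KO (-3.88 ± 0.58, FDR 0.0337). Gdpd3, a phosphodiesterase of lipid metabolism, was at 3.42 TPM in WT replicate 1 and between 64.7 and 129 TPM in the other 5 libraries without LPS, and at 0.16 TPM in WT-LPS replicate 1, beside 28.5 and 24.8 in its group (4.85 ± 0.66, FDR 0.0281). The fit with the covariate was not repeated without these libraries. Eno1b was likewise low in WT replicate 1 (10.5 TPM, beside 135 and 96.5 in the other WT libraries and 338 to 390 in CPEB1-KO) and in WT-LPS replicate 1 (9.11 TPM, beside 172 and 178 in its group). It shares 81.8% of its 31-base stretches with Eno1. Dynlt1b, at 30.6 TPM in WT replicate 1 and 76.7 to 116 TPM in the other 5 libraries without LPS, was at 43.6 TPM in WT-LPS replicate 1, beside 110 and 102 in its group, and shares 82.7% with Dynlt1c.

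**Figure D4:**
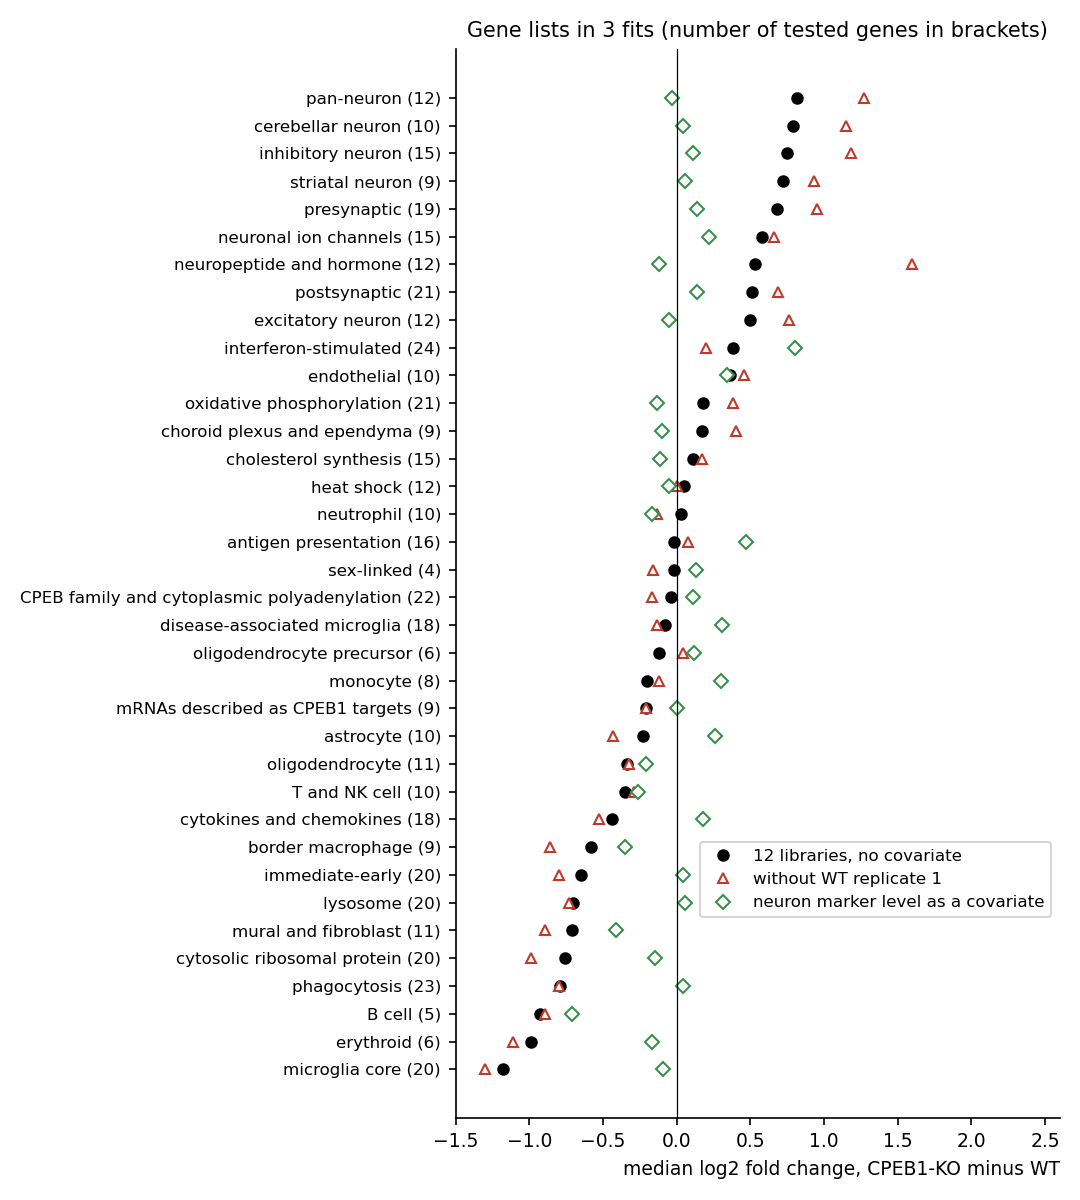
Median log2 fold change (CPEB1-KO minus WT) of each of the 36 gene lists in the fit of 12 libraries (black circles), without WT replicate 1 (red triangles) and with the neuron marker level as a covariate (green diamonds). The pan-neuron median goes from 0.82 to 1.27 without WT replicate 1 and to -0.03 with the covariate, and the core microglial median from -1.18 to -1.30 and -0.09.

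Phagocytosis and lysosome genes had negative medians. Of 23 phagocytosis genes 7 had an unadjusted p under 0.05 on the lower side (beside 11.1% of all genes) and 1 on the higher side (beside 7.54%), with a median of -0.79. Fcer1g, the signalling chain of Fc receptors, was at 718, 1104 and 933 TPM in WT and at 602, 430 and 365 TPM in CPEB1-KO (-1.35 ± 0.52, FDR 0.213). Of 20 lysosomal genes 7 had an unadjusted p under 0.05, all lower, with a median of -0.70. Ctsd, the protease cathepsin D, was at 2797 to 2942 TPM in WT and 1477 to 2174 TPM in CPEB1-KO (-1.01 ± 0.46, FDR 0.265). Both medians were negative on TPM (-0.49 and -0.33, beside 0.26 over all genes) and near 0 with the neuron covariate (0.04 and 0.06). That covariate partly followed genotype, so the values near 0 cannot be assigned to neuronal content. With counts scaled to the core microglial genes they were 0.34 and 0.49, below the 1.13 of all genes.

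Transcripts of the disease-associated microglial state and of antigen presentation had medians of -0.08 and -0.02. On TPM these were 0.21 and 0.07, beside 0.26 over all genes. The 16 antigen presentation genes summed to 4800.5 TPM in CPEB1-KO replicate 1, the library with the highest level of interferon-stimulated genes, and to 2426 and 1774 TPM in the other CPEB1-KO libraries, which lay below all 3 WT libraries (2597 to 3126 TPM). The 18 genes of the disease-associated state summed to 8814 TPM in CPEB1-KO replicate 1 and to 7246 and 6580 TPM in the other CPEB1-KO libraries, beside 7820 to 8227 TPM in WT. Apoe, a lipid carrier of this state, was at 3140 to 3655 TPM in WT and 3675 to 4578 TPM in CPEB1-KO (-0.11 ± 0.36 on scaled counts, FDR 0.884). On TPM its log2 fold change was 0.23, so the sign depended on the scaling. No gene of either list passed an FDR of 0.05.

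Cytosolic ribosomal protein transcripts lay lower in CPEB1-KO, with WT replicate 1 beside the CPEB1-KO libraries. All 20 fold changes were below 0 and 13 had an unadjusted p under 0.05, beside 11.1% of all genes on the lower side. The median was -0.76, and it was -0.36 on TPM (0.26 over all genes) and -0.15 with the neuron covariate. It was 0.48 with counts scaled to the core microglial genes, where the median of all genes was 1.13. Rplp1, a stalk protein of the large subunit, was at 5630, 10690 and 8163 TPM in WT and at 6047, 5183 and 5094 TPM in CPEB1-KO (-0.98 ± 0.36, FDR 0.205). Summed TPM of the 20 genes was 31828 in WT replicate 1, beside 54202 and 43407 in the other WT libraries and 30577 to 34784 in CPEB1-KO. Of 21 oxidative phosphorylation genes 1 had an unadjusted p under 0.05, on the higher side, no more than the share of all genes (7.54%). The median was 0.18.

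Of 22 genes of the CPEB family and of cytoplasmic polyadenylation, 3 had an unadjusted p under 0.05 on the higher side (beside 7.54% of all genes) and 2 on the lower side (beside 11.1%). None passed an FDR of 0.05 in edgeR with all libraries. The count on the lower side is no more than the share of all genes. The 3 were the other CPEB family members. Cpeb2 was at 13.4, 9.54 and 13.8 TPM in WT and at 17.8, 25.5 and 23.0 TPM in CPEB1-KO (0.54 ± 0.23, FDR 0.235). Cpeb3 was at 6.48, 5.27 and 3.64 TPM in WT and at 8.89, 13.8 and 15.4 TPM in CPEB1-KO (0.96 ± 0.26, FDR 0.148). Cpeb4 was at 14.6, 10.4 and 12.1 TPM in WT and at 19.2, 27.8 and 24.5 TPM in CPEB1-KO (0.63 ± 0.19, FDR 0.169). The groups did not overlap in any of the 3, and their values with the neuron covariate were 0.83, 0.70 and 0.56 (FDR 0.786 to 0.956). In the LPS libraries the same difference was -0.60, -0.43 and -0.36. Sympk was at 66.1, 91.5 and 136 TPM in WT and at 62.8, 61.2 and 59.8 TPM in CPEB1-KO (-1.02 ± 0.26, FDR 0.146). DESeq2 called 2 of the 22 genes higher and 1 lower, Sympk (FDR 0.0144), beside 3.39% of all genes. Without WT replicate 1 Sympk and Cpsf4 passed in edgeR, both lower, beside 4.95% of all genes on that side.

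Of 9 tested mRNAs described as CPEB1 targets, none passed an FDR of 0.05 with all libraries, and Map2 passed without WT replicate 1. None had an unadjusted p under 0.05 on the lower side, beside 11.1% of all genes. On the higher side 1 did, near the share of all genes (7.54%). This was Map2, a dendritic microtubule protein that is also in the pan-neuron list, at 119, 54.6 and 44.1 TPM in WT and at 115, 203 and 203 TPM in CPEB1-KO (0.96 ± 0.32, FDR 0.186). Ndufv2, a complex I subunit, was at 188, 125 and 122 TPM in WT and at 158, 184 and 204 TPM in CPEB1-KO (0.01 ± 0.25). The list's median was -0.21, beside -0.03 over all genes, and it was 0.14 on TPM, beside 0.26 over all genes. RNA levels do not show poly(A) tail length or translation.

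Genes that lay higher in CPEB1-KO had longer annotated 3′UTRs than those that lay lower. The median length was 2346 bases for the 1078 genes with an unadjusted p under 0.05 on the higher side, 598 bases for the 1570 on the lower side and 1190 bases over all genes. CPE letters occurred in 82.1%, 38.7% and 62% of these 3′UTRs. Per kb of 3′UTR this was 1.43, 0.878 and 1.29 motifs, so the sets differed less by density than by share. With the neuron covariate, where 2.21% and 2.64% of genes had an unadjusted p under 0.05 on the higher and lower side, the medians were 2112 and 562 bases. In the LPS libraries the order was opposite. There the median was 526 bases on the higher side (5.71% of genes, 43.1% of the 3′UTRs with the motif) and 2345 bases on the lower side (5.09% of genes, 80.8% with the motif).

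The same length axis separated single libraries. Genes with 3′UTRs under 500 bases held 55.5%, 63.4% and 60.8% of TPM in WT replicates 1 to 3 and 55.4%, 51.6% and 50.9% in CPEB1-KO, so WT replicate 1 again lay beside CPEB1-KO replicate 1. Genes with 2000 bases or more held 11.6%, 9.88% and 10.2% in WT and 11.9%, 14% and 14% in CPEB1-KO. Ribosomal protein mRNAs, which have short 3′UTRs, are among the first set. The relation of 3′UTR length to depth or RNA quality was not tested.

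Some differences came from single CPEB1-KO libraries. CPEB1-KO replicate 2 held the pituitary hormones Gh and Prl at 4952 and 1249 TPM, while the other 5 libraries had at most 58.6 and 7.76 TPM. CPEB1-KO replicate 1 had a summed level of 24 interferon-stimulated genes of 1102 TPM, beside 413 and 354 in the other CPEB1-KO libraries and 370 to 466 in WT. Ifi27l2a was at 405 TPM there and at 63.6 to 137 TPM in the other 5. The B cell list was at 54.0 TPM in this library and at 11.4 and 7.62 TPM in the other CPEB1-KO libraries, with 26.6 to 46.7 TPM in WT. The chemokine Cxcl13, which attracts B cells, was at 64.4 TPM there and at 0.67 and 1.44 TPM in the other CPEB1-KO libraries, with 0 to 0.29 TPM in WT. In CPEB1-KO replicate 3 the neutrophil list stood at 521 TPM, beside 2481 and 2919 in its group and 1108 to 2730 in WT.

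No marker of other brain, vascular or border cells passed an FDR of 0.05 with all libraries in edgeR. Without WT replicate 1 Vtn, Col1a1, Col1a2, Mrc1 and Cbr2 passed, all lower in CPEB1-KO (-0.98 to -1.91, FDR 0.0329 to 0.0455). That fit called 4.95% of all genes on the lower side. In DESeq2, 2 of 11 mural and fibroblast genes, Vtn (FDR 0.0371) among them, and 1 of 9 border macrophage genes, Cbr2 (FDR 0.0185), passed. DESeq2 called 3.39% of all genes. Astrocyte, oligodendrocyte and oligodendrocyte precursor lists had no gene with an unadjusted p under 0.05 among 27, beside 18.6% of all genes in either direction. Mbp, the myelin basic protein, was at 2276, 6531 and 3382 TPM in WT and at 1692, 3529 and 3210 TPM in CPEB1-KO (-0.97 ± 0.61, FDR 0.400). Of 11 mural and fibroblast genes 3 had an unadjusted p under 0.05, all lower (beside 11.1% of all genes), and Vtn, the pericyte protein vitronectin, was at 69.1 to 85.8 TPM in WT and 44.2 to 47.1 TPM in CPEB1-KO (-1.05 ± 0.29, FDR 0.155). Of 9 border macrophage genes 3 had an unadjusted p under 0.05, all lower. Mrc1, the mannose receptor, was at 3.75, 7.12 and 5.63 TPM in WT and at 3.55, 2.80 and 2.25 TPM in CPEB1-KO (-1.31 ± 0.43, FDR 0.186).

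Genes around Cpeb1 were counted because a targeted allele can carry flanking sequence. Of 89 tested genes within 10 Mb of Cpeb1, 0 passed an FDR of 0.05 in edgeR and 4 in DESeq2, which called 3.39% of all genes, and 19.1% had an unadjusted p under 0.05. The share was 21.4% elsewhere on chromosome 7 and 18.4% for all other genes.

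The same genotype comparison in the LPS libraries, which share no sample with that without LPS, gave 1 gene past an FDR of 0.05 among 15295 (0.00654%). This was Gm13304, at 53.0, 26.0 and 23.6 TPM in WT-LPS and at 0.32, 0.48 and 0.25 TPM in CPEB1-KO-LPS (-6.38 ± 0.57, FDR 0.000582). Of the 5 genes called without LPS 2 kept their sign, and of the 15 at an FDR of 0.10 9 did. In 5 of the 15 the knockout libraries lay below the wild-type libraries in both treatments, beside 0.379% of all genes. The choice of the 15 fixed this for the libraries without LPS, so that share is not a like one. Of the 2119 genes lower without overlap in the libraries without LPS, 58 were so in both treatments. Itga6 was one of the 5, at 6.30, 11.4 and 11.6 TPM in WT-LPS and 2.74, 3.44 and 3.94 TPM in CPEB1-KO-LPS (-1.45 ± 0.31, FDR 0.346). Slc2a5 was low in both LPS groups, at 0.64 to 0.80 TPM and 0.33 to 0.66 TPM (-0.39 ± 0.44, FDR 0.756). Taf15 and Cuedc1 had small differences of the other sign (0.34 ± 0.23 and 0.28 ± 0.19), with interaction FDR of 0.133 for each. Serpina1b was again higher in the knockout, at 1.95 to 3.30 TPM beside 0.11 to 0.27 TPM (3.55 ± 0.62, FDR 0.188).

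**Figure D5:**
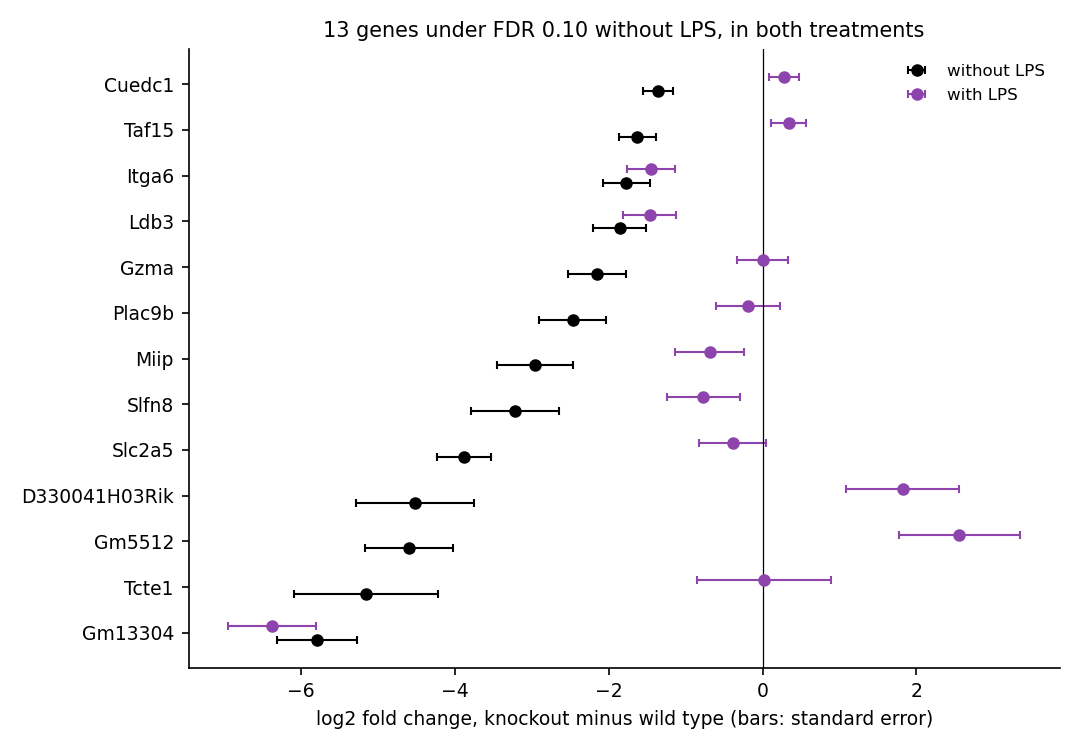
Log2 fold change, knockout minus wild type, without LPS (black) and with LPS (purple) for 13 of the 15 genes at an FDR of 0.10 without LPS, with bars of 1 standard error. Pnp2 and Rpph1 are left out because their knockout counts are near 0. Gm13304, Itga6 and Ldb3 have similar values in both treatments, while Gm5512 and D330041H03Rik lie on opposite sides of 0.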

How the data were processed

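Expected counts per gene and TPM were deposited by the authors as tables of 23845 genes by 12 libraries. Per the submitters' processing notes, cutadapt, RSEM and the mm10 build were used; the sources used here name no versions, aligner or filters. TPM, scaled by the authors to the same total in every library, serve for levels.

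Expected counts were rounded to integers for edgeR 4.0.16 (R 4.3.3, filterByExpr by group, 15295 genes kept, TMM scaling). All 12 libraries entered a quasi-likelihood fit with 1 mean per group (8 residual degrees of freedom, common biological coefficient of variation 0.282). Tests were two-sided, with FDR over all genes of a contrast. P-values measure the spread between single animals, pooled over all 4 groups, those treated with LPS among them. SE were the absolute fold change over the square root of F. WT and CPEB1-KO replicates of the same number did not deviate together (r = -0.148, 0.0331 and -0.217), so numbers were not taken as pairs. WT and WT-LPS replicates of the same number did (r = 0.378, 0.149 and 0.176), and CPEB1-KO and CPEB1-KO-LPS replicates did not all (-0.029, 0.0875 and -0.138). The fit without a block treats all 12 libraries as independent. Ratios of low counts carry exact 95% intervals that cover counting error only. Shared sequence was counted as 31-base stretches of GENCODE M21 transcripts. Alternatives were other scalings and filters, DESeq2 1.42.0, limma 3.58.1 on log2(TPM + 1) or log2(TPM + 0.1), a replicate block, the neuron covariate, and leaving out each library.

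The comparison and the 36 gene lists (504 entries, 6 absent from the tables) were chosen with earlier results of these data known. Named genes were Cpeb1, all genes past FDR 0.05 in the genotype contrast or the interaction and the 2 most abundant members of each list; some of these are not reported here. Genes between FDR 0.05 and 0.10, neighbours, genes called with the covariate and other list members were named after their values were seen.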

Additional observations from a re-analysis of the deposited data

Results flagged for a closer look

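Of the 15295 genes tested, Gm5512 was the only one whose genotype difference with LPS differed from that without LPS past an FDR of 0.05 in the fit of all 12 libraries. The interaction was 7.16 on the log2 scale (FDR 0.0479). No interaction passed with median-of-ratios scaling, the stricter filter, the neuron covariate or the 1.5-fold test, or in 10 of the 12 fits that left out 1 library. Without WT replicate 1 441 genes passed, and without CPEB1-KO-LPS replicate 2 1 did. It was at 12.6 to 50.1 TPM in WT and 0.63 to 1.93 TPM in CPEB1-KO, and at 0.11 to 0.34 TPM in WT-LPS and 0.64 to 1.77 TPM in CPEB1-KO-LPS. The 3 WT libraries without LPS stood above the other 9. Gm5512 is a processed pseudogene that shares most of its sequence with Rmnd1, and how reads were divided between the pair was not tested.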

How the results depend on the processing

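The count of genes past an FDR of 0.05 (5, all lower) was 5 with median-of-ratios or upper-quartile scaling and with a stricter filter. It was 11 with no filter (all lower), 4 in the 6 libraries alone, 3 with a test against 1.5-fold, 10 with the neuron covariate (4 higher, 6 lower), 9 with limma on log2(TPM + 1) (2 higher, 7 lower), 6 on log2(TPM + 0.1) (2 higher) and 6 with no filter (3 higher, 3 lower). DESeq2 called 519 genes (123 higher, 396 lower). Scaling to the core microglial genes moved the median gene to 1.13 and called 9432 genes (9397 higher, 35 lower). The replicate block gave 3 calls (all lower), and 2 (1 higher, 1 lower) with the neuron covariate beside it. Leaving out 1 library gave 2 to 1292 calls, 0 to 523 higher and 2 to 769 lower. Leaving out WT replicate 1 and CPEB1-KO replicate 1 together, chosen after seeing the data, gave 819 (328 higher, 491 lower). Interaction calls (1) were 0 with median-of-ratios scaling, the stricter filter, the neuron covariate with or without the replicate block, the 1.5-fold test, log2(TPM + 0.1) and TPM with no filter, 2 on log2(TPM + 1), 301 with DESeq2, 0 to 441 without 1 library and 321 without both replicates 1. Calls within 10 Mb of Cpeb1 (0) were 47 with scaling to the core microglial genes, 4 with DESeq2, 0 to 6 without 1 library and 4 without both replicates 1. Called list members (1) were 276, 24, 1 to 53 and 41 in the same order. The difference in pan-neuron level (1.24) was 2.24 relative to the core microglial list and 0.94 to 1.73 without 1 library. Cpeb1 turned from -0.58 to 0.59 with scaling to the core microglial genes. It lay between -0.81 and -0.05 without 1 library. At 5.02 to 13.4 M counts per library, a difference that did not pass is not thereby shown to be absent. The causes of these differences between settings were not tested.

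The remaining sign changes, as log2 fold changes, were of genes named above and of others named by the same rule. The median of all genes was 1.13 with scaling to the core microglial genes and 0.26 on log2(TPM + 1), beside -0.03 in the main fit. With the neuron covariate the sign turned for Snap25 (-0.19), Stmn3 (-0.31), Nrgn (-0.71), Pvalb (-0.26), Syp (-0.43), Rab3a (-0.06), Dlg4 (-0.15), Hcn2 (-0.11), Pcp2 (-0.07), Ppp1r1b (-0.21), Cck (-0.46), Apoe (0.27), Bst2 (0.69), B2m (0.61), Fcgr3 (0.26), Aldoc (0.07), S100b (0.28), Mbp (0.26), Clic6 (0.19), S100a4 (0.01), Plac8 (0.30), Pabpc1 (0.09), Ndufv2 (-0.43), Cox4i1 (-0.01), Fos (0.64), Fdps (-0.11), Ctss (0.26), Ddx3y (0.15), P2ry12 (0.09), Trem2 (0.02). With the replicate block and the neuron covariate the sign turned for Snap25 (-0.27), Stmn3 (-0.20), Nrgn (-0.61), Pvalb (-0.18), Syp (-0.40), Dlg4 (-0.34), Hcn2 (-0.07), Pcp2 (-0.03), Ppp1r1b (-0.18), Cck (-0.37), C1qa (0.16), Apoe (0.34), Ccl3 (0.24), Bst2 (0.98), B2m (0.85), Fcgr3 (0.38), Clic6 (0.29), S100a4 (0.53), Plac8 (0.49), S100a8 (0.27), S100a9 (0.07), Nkg7 (0.32), Pabpc1 (0.08), Ndufv2 (-0.45), Cox4i1 (-0.03), Jun (0.08), Fos (0.89), Fdps (-0.03), Ctss (0.36), Ddx3y (0.03), P2ry12 (0.11), Tmem119 (0.26), Trem2 (0.33). With counts scaled to the core microglial genes the sign turned for Sst (0.82), Rgs9 (0.19), Apoe (1.07), Ctsd (0.14), Ccl3 (0.24), Bst2 (0.93), B2m (0.69), Fcgr3 (0.21), Aldoc (1.17), S100b (0.81), Mbp (0.44), C1ql1 (0.83), Vtn (0.14), Dcn (0.83), Clic6 (0.98), S100a4 (0.70), Plac8 (0.76), S100a8 (0.95), S100a9 (1.01), Nkg7 (0.75), Cd79b (0.07), Cd79a (0.24), Hba-a2 (0.08), Hbb-bs (0.12), Pabpc1 (0.39), Sympk (0.18), Rplp1 (0.27), Rps14 (0.33), Cox6c (0.89), Fos (0.14), Hmgcs1 (1.08), Ctss (0.33), Eif2s3y (0.47), Ddx3y (1.04), P2ry12 (0.06), Tmem119 (0.02). With limma on log2(TPM + 1) the sign turned for Sst (0.10), Apoe (0.23), Bst2 (0.02), Aldoc (0.26), Clic6 (0.17), Cox6c (0.15), Hmgcs1 (0.17), Ddx3y (0.16). With limma on log2(TPM + 0.1) the sign turned for Sst (0.10), Gh (-0.58), Apoe (0.23), Bst2 (0.02), Aldoc (0.26), Clic6 (0.18), Cox6c (0.15), Hmgcs1 (0.18), Ddx3y (0.17). With limma on log2(TPM + 1) and no filter the sign turned for Sst (0.10), Apoe (0.23), Bst2 (0.02), Aldoc (0.26), Clic6 (0.17), Cox6c (0.15), Hmgcs1 (0.17), Ddx3y (0.16). With median-of-ratios scaling the sign turned for Ccl12 (-0.02), Ndufv2 (-0.01). With DESeq2 the sign turned for Ccl12 (-0.03), Ndufv2 (-0.01). Without WT replicate 1 and CPEB1-KO replicate 1 the sign turned for Ccl12 (-1.14), Ifi27l2a (-0.71), H2-D1 (-0.40), Cox6c (0.04), Gdpd3 (-0.69), Dynlt1b (-0.30), Rmnd1 (-0.05). Leaving out 1 library turned the sign for Nrgn (-0.07 to 0.84), Gh (-7.70 to 7.13), Apoe (-0.25 to 0.05), Ccl12 (-0.90 to 0.37), Ifi27l2a (-0.41 to 1.10), Bst2 (-0.86 to 0.15), H2-D1 (-0.33 to 0.60), Aldoc (-0.45 to 0.37), S100b (-0.90 to 0.13), S100a4 (-1.13 to 0.05), Plac8 (-0.83 to 0.14), S100a8 (-0.63 to 0.45), S100a9 (-0.57 to 0.36), Nkg7 (-0.94 to 0.08), Ndufv2 (-0.11 to 0.12), Cox4i1 (-0.13 to 0.26), Cox6c (-0.47 to 0.05), Hmgcs1 (-0.47 to 0.17), Gdpd3 (-0.32 to 0.79), Dynlt1b (-0.15 to 0.48), Prl (-3.94 to 7.95), Rmnd1 (-0.02 to 0.13).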

Other observations

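Marker genes of the Y chromosome were present in all 6 libraries without LPS. Ddx3y was at 21.0 to 21.6 TPM in WT and 22.5 to 26.8 TPM in CPEB1-KO, and Eif2s3y was at 32.4 to 105 TPM and 44.4 to 66.7 TPM.

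Npas4, an activity-induced transcription factor of neurons, did not follow the pan-neuron level. It was at 10.5, 28.2 and 75.9 TPM in WT and at 12.6, 11.7 and 7.77 TPM in CPEB1-KO (-2.17 ± 0.57, FDR 0.146). Without WT replicate 1 it was lower in CPEB1-KO past the threshold (-2.64, FDR 0.00700). In the LPS libraries the difference was 2.53 ± 0.62 (FDR 0.361). Of the 20 immediate-early genes 18 had a fold change below 0 without LPS, beside 8027 of the 15295 genes tested. On the lower side 1 had an unadjusted p under 0.05, no more than the share of all genes (11.1%). The list's median was -0.65, and it was -0.40 on TPM (0.26 over all genes) and 0.04 with the neuron covariate. It was 0.48 with counts scaled to the core microglial genes, where the median of all genes was 1.13.

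Of 15 cholesterol synthesis genes 4 had an unadjusted p under 0.05, all higher in CPEB1-KO (beside 7.54% of all genes), and the list's median was 0.11 (-0.11 with the neuron covariate).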
